A study of Danio rerio with 12 samples.

Results

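The Vegf ligands vegfaa and vegfab, their receptors kdrl, kdr, flt1 and flt4, the angiopoietin receptor gene tek, the related receptor gene tie1, and the endothelial genes cdh5 and fli1a were followed in zebrafish hearts. They were taken by gene symbol, as markers of vessels and endocardium and as Vegf ligands. All 10 were among the 32520 genes of the count files, and all 10 were among the 16604 genes that passed the filter on low counts. The table of gene names lists vegfaa and vegfab under the shared name VEGFA and does not say which is which, so the copies are called VEGFA ENSDARG00000034700 and VEGFA ENSDARG00000103542. The other identifiers were ENSDARG00000105215 for kdrl, ENSDARG00000017321 for kdr, ENSDARG00000019371 for flt1, ENSDARG00000104453 for flt4, ENSDARG00000054632 for fli1a, ENSDARG00000075549 for cdh5, ENSDARG00000004105 for tie1 and ENSDARG00000028663 for tek.

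RNA-seq was done on ventricles of adult wild-type zebrafish and of mvp-/- zebrafish, which lack the major vault protein gene, all on the AB background. Both genotypes had either sham surgery or resection of part of the ventricle, and the resected hearts were taken at 7 days post amputation (7dpa), with tissue collected below the plane of surgery. The labels give no day for the sham hearts. Time since surgery therefore cannot be told apart from resection, nor from genotype between the sham groups. The 4 groups, wild-type sham, wild-type 7dpa, mvp-/- sham and mvp-/- 7dpa, had 3 libraries each. All mvp-/- fish carried a single CRISPR deletion allele that removes the coding region, although the paper's results and methods give different sizes for the deletion. The methods give a number of extracted hearts of both genotypes, but not how many went into each group or library. They name biological replicates for the experiments in general, but not whether each library came from its own animals. The p-values therefore measure only the spread between these libraries.

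Vegfa is the main growth signal of blood vessels and is made largely by cells around them. In zebrafish kdrl and kdr encode the receptors that carry this signal, flt1 binds the same ligands with little signalling of its own and also gives a secreted form that traps them, and flt4 is the receptor for Vegfc in veins and lymphatics. Vessels grow into the regenerating zebrafish ventricle after resection, and the endocardium, the endothelium that lines the heart chambers, responds to injury across the heart.

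Library totals ranged from 21356163 to 26684651 counts. WT 7dpa replicate 1 stood apart from the other libraries of its group, with a chi-square per gene of 91.2 and 95.3 against them (counting noise alone gives about 1), whereas they differed from each other by 2.19. Accordingly, gene levels varied most among the wild-type 7dpa libraries (biological coefficient of variation 26.6%, against 4.77% to 7.86% in the other groups). Mitochondrial genes took 14.6% to 15.1% of the counts in wild-type sham libraries and 10.3% to 13.5% elsewhere. Levels are in CPM, a gene's counts brought to one common library size, after TMM scaling, which sets the bulk of genes as the level of no change. Scaling by library totals alone would shift the median gene by 0.39 (log2) between 7dpa and sham hearts of wild-type fish and by 0.27 in mvp-/- fish. The targeted gene, mvp, was at 184.6 ± 6.93 and 154 ± 30.0 CPM (SD, n = 3) in wild-type sham and 7dpa hearts. It was low but not absent in mvp-/- hearts, against the removal of its coding region, with 91 to 108 counts (5.02 ± 0.370 CPM) after sham surgery and 429 to 475 counts (17.99 ± 1.40 CPM) at 7dpa, and the source of these reads was not tested. In embryos the paper reports mvp mRNA as absent from the mutant, by qPCR and in situ hybridization.

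Among the Vegf receptor genes, both mvp-/- groups lay above both wild-type groups for flt1, kdrl and flt4, but not for kdr. How many of all genes separate in this way, or in the ways given below, was not counted. Genotype differences were common: 25.3% of all genes were called higher and 24.2% lower in mvp-/- against wild-type sham hearts. At 7dpa these shares were 8.94% and 10.6%. In wild-type sham hearts flt1 was at 16.7, 14.9 and 17.0 CPM, and in wild-type 7dpa hearts at 36.5, 52.3 and 53.6 CPM. In mvp-/- sham hearts it was at 113, 108 and 107 CPM, and in mvp-/- 7dpa hearts at 88.7, 86.6 and 93.5 CPM. No group overlapped with another for flt1, with the order wild-type sham, wild-type 7dpa, mvp-/- 7dpa and mvp-/- sham from low to high. Its counts sum the membrane and secreted forms, which gene counts do not separate. The gene kdrl, a standard marker of zebrafish endothelium and endocardium, was at 54.6, 57.1 and 52.6 CPM in wild-type sham hearts and at 58.5, 52.8 and 56.5 CPM in wild-type 7dpa hearts. In mvp-/- sham hearts kdrl was at 105, 101 and 102 CPM, and in mvp-/- 7dpa hearts at 83.4, 78.0 and 82.3 CPM. The wild-type groups overlapped for kdrl, while both mvp-/- groups lay above them and apart from each other.

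The paralogous receptor gene kdr had similar means in the groups. Mean levels ± SD of 3 libraries were 19.0 ± 1.63 CPM for wild-type sham, 16.6 ± 1.83 CPM in wild-type 7dpa, 17.2 ± 2.37 CPM in mvp-/- sham and 18.2 ± 1.09 CPM in mvp-/- 7dpa hearts. All neighbours in the order of groups overlapped. For the receptor gene flt4 the level was 1.61 ± 0.327 CPM (SD over 3 libraries) in wild-type sham, 3.14 ± 0.434 CPM in wild-type 7dpa, 4.001 ± 0.179 CPM in mvp-/- sham and 5.08 ± 0.245 CPM in mvp-/- 7dpa hearts. No neighbouring groups overlapped for flt4, although its counts were low, from 23 to 137 per library. How reads shared by paralogs such as kdr and kdrl were counted was not stated, and such reads could have been split or left out.

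**Figure D1:**
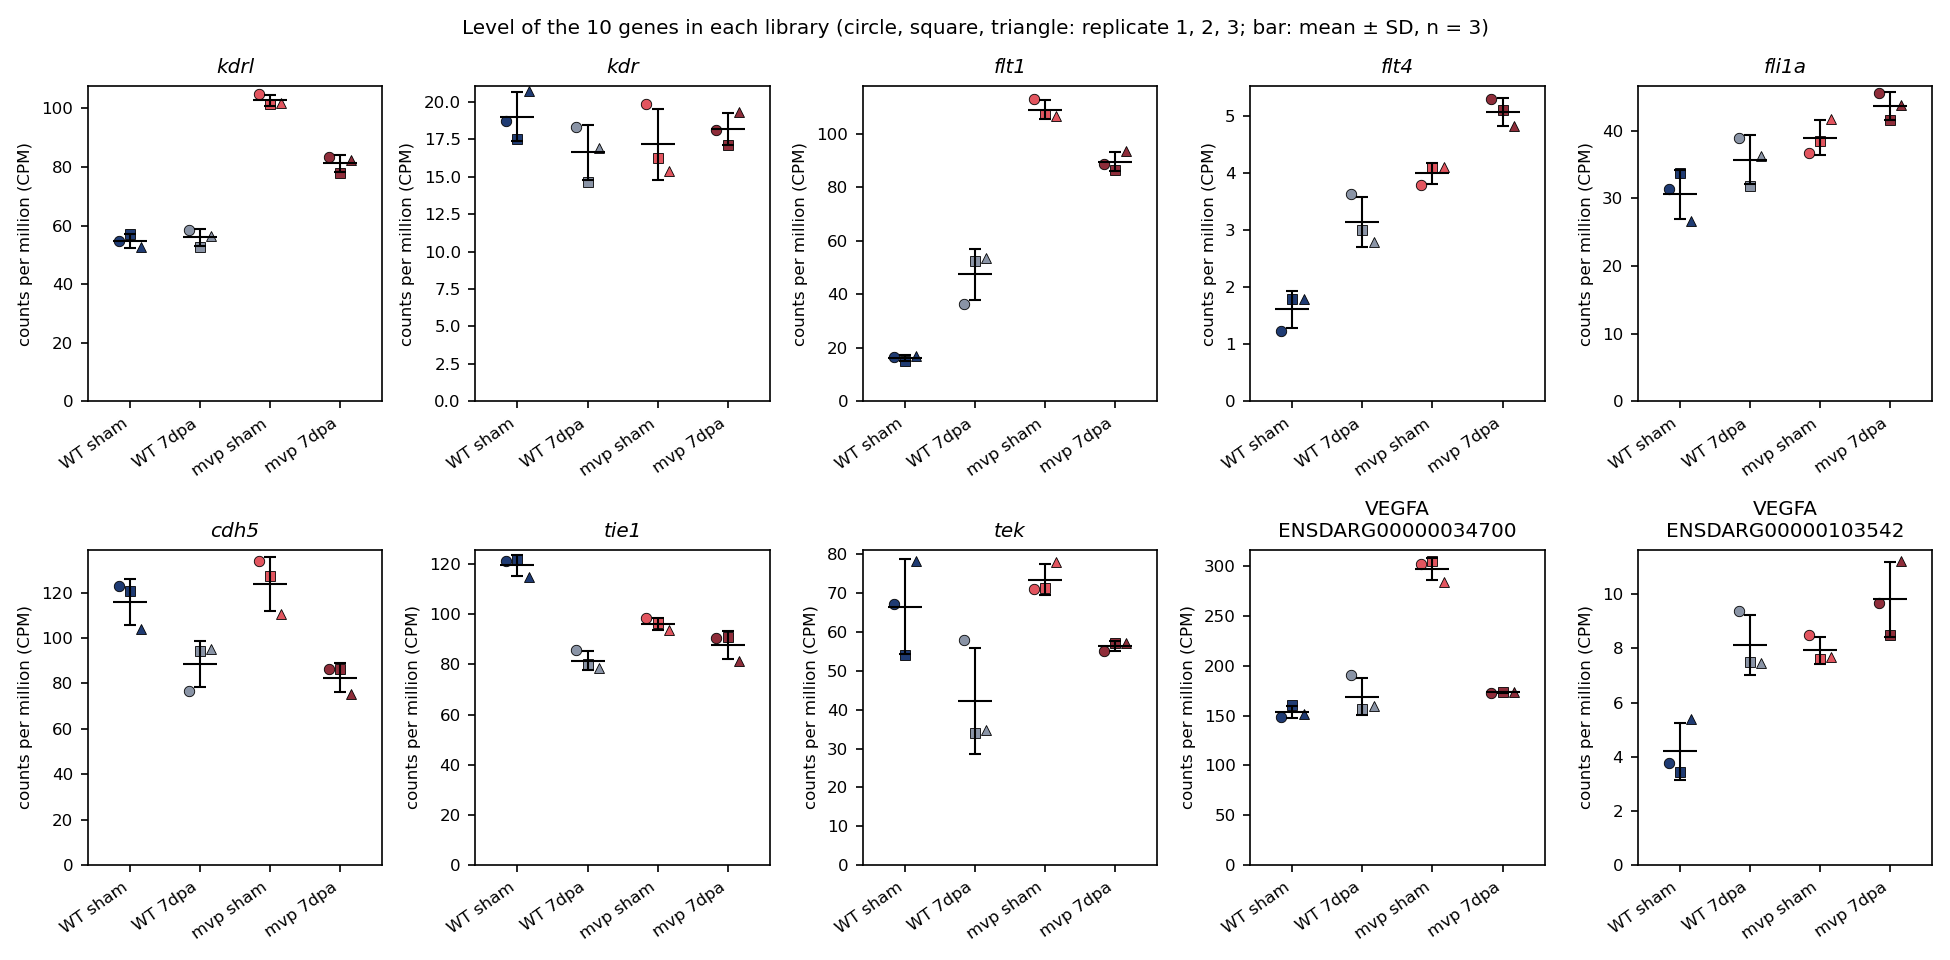
Level of each of the 10 genes in the 12 libraries, in CPM (TMM scaled, linear axes from 0). Points are libraries (circle, square and triangle for replicates 1, 2 and 3), and bars are the mean ± SD of 3 libraries. The points of flt1 do not overlap between any groups, and for VEGFA ENSDARG00000034700 the mvp-/- sham libraries stand above all others.

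The gene cdh5 encodes VE-cadherin, the adhesion protein of endothelial junctions. It was at 123, 121 and 104 CPM in wild-type sham hearts and at 76.9, 94.1 and 95.01 CPM in wild-type 7dpa hearts, without overlap. In the mvp-/- groups cdh5 was at 134, 127 and 111 CPM after sham surgery and at 86.2, 86.2 and 75.4 CPM at 7dpa, also without overlap. Within each surgery group the genotypes overlapped for cdh5.

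The gene tek encodes the angiopoietin receptor, and tie1 a related receptor that modulates its signalling. In wild-type hearts tie1 was at 121, 122 and 115 CPM after sham surgery and at 85.8, 80.4 and 78.5 CPM at 7dpa. In mvp-/- hearts it was at 98.6, 96.5 and 93.8 CPM after sham surgery and at 90.5, 91.1 and 81.3 CPM at 7dpa. The 7dpa groups overlapped, the mvp-/- sham libraries lay above them, and the wild-type sham libraries were highest. The gene tek was at 67.2, 54.1 and 78.4 CPM in wild-type sham and at 57.9, 33.9 and 34.7 CPM in wild-type 7dpa hearts, where the high value is that of WT 7dpa replicate 1. In mvp-/- hearts it was at 73.5 ± 3.97 CPM (SD, n = 3) after sham surgery and at 56.5 ± 1.29 CPM at 7dpa, without overlap between these 2 groups. Neighbours in the order of all tek groups overlapped. The transcription factor gene fli1a, which is active across endothelium and also in thrombocytes, was at 30.6 ± 3.62, 35.7 ± 3.61, 39.0 ± 2.58 and 43.6 ± 2.02 CPM (n = 3, SD) in wild-type sham, wild-type 7dpa, mvp-/- sham and mvp-/- 7dpa hearts. Neighbours in the order of groups overlapped for fli1a, but within each surgery group every mvp-/- library was above every wild-type one.

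The ligand genes differed from each other. VEGFA ENSDARG00000034700 was at 149, 161 and 152 CPM in wild-type sham hearts and at 191, 157 and 160.3 CPM in wild-type 7dpa hearts. It was at 302, 306 and 285 CPM in mvp-/- sham hearts and at 173, 174 and 174 CPM in mvp-/- 7dpa hearts. The mvp-/- sham libraries were thus above all others, and the remaining neighbours in the order of groups overlapped. VEGFA ENSDARG00000103542 was at 3.76, 3.43 and 5.41 CPM in wild-type sham and at 9.39, 7.52 and 7.45 CPM in wild-type 7dpa hearts. In mvp-/- hearts this copy was at 8.51, 7.63 and 7.68 CPM after sham surgery and at 9.69, 8.50 and 11.2 CPM at 7dpa. For it the wild-type sham libraries were below all others, and the other 3 groups overlapped.

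The first comparison asked how the vascular genes differed between resected and sham hearts of wild-type fish. Relative to the bulk of genes, flt1 rose 2.93-fold, flt4 rose 1.94-fold and VEGFA ENSDARG00000103542 rose 1.94-fold at 7dpa. The genes tie1, tek and cdh5 fell, to 0.682, 0.634 and 0.765 of their sham level, but cdh5 turned to a log2 change of 0.01 and tek lost its call when libraries were scaled by their totals. For kdrl, the log2 change was 0.03 with a 95% interval from -0.11 to 0.17. Of the 10 genes, 3 were called higher and 3 lower, with a median log2 change of 0.08. Over all genes tested 31.6% were called higher and 27.8% lower, with a median of 0.01, so the share of called genes was like that of genes in general.

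By the quasi-likelihood test of edgeR, adjusted over 16604 genes after Benjamini and Hochberg, the log2 change of flt1 was 1.55 (SE 0.12, adjusted p = 3.21e-07), that of flt4 was 0.95 (SE 0.17, adjusted p = 4.07e-04) and that of VEGFA ENSDARG00000103542 was 0.96 (SE 0.17, adjusted p = 4.07e-04). In the same edgeR test tie1 fell by 0.55 on the log2 scale (SE 0.07, adjusted p = 1.21e-05), tek by 0.66 (SE 0.18, adjusted p = 0.00629) and cdh5 by 0.39 (SE 0.10, adjusted p = 0.00585). These 6 calls were made in each of the 12 fits that left out 1 library. With library totals, a scaling tried after seeing the data, 6 of the 10 genes were called higher and 1 lower, and the split over all genes went from 5243 higher and 4619 lower to 8353 higher and 2042 lower. Under it the log2 change was 0.42 for kdrl (adjusted p = 3.49e-05), 0.20 for kdr, which was -0.19 with TMM, and -0.28 for tek (edgeR, adjusted p = 0.158). The direction was the same in both scalings for the other 8 genes, kdrl, flt1, flt4, fli1a, tie1, tek and both VEGFA copies.

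The same comparison in mvp-/- hearts gave no called rise. VEGFA ENSDARG00000034700 fell to 0.583 of its sham level, cdh5 to 0.666 and kdrl to 0.790. Of the 10 genes, 0 were called higher and 3 lower, with a median log2 change of -0.21. Over all genes 12.9% were called higher and 13.4% lower, with a median of 0.02. At an unadjusted p under 0.05, edgeR had 1 gene higher, flt4, with a 95% interval from 0.01 to 0.68 on the log2 scale, and DESeq2 called 0 higher.

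The fall of VEGFA ENSDARG00000034700 was -0.78 on the log2 scale (SE 0.08, edgeR adjusted p = 1.37e-05), that of cdh5 was -0.59 (SE 0.10, adjusted p = 0.00117) and that of kdrl was -0.34 (SE 0.06, adjusted p = 0.00151). With library totals kdrl lost its call, at -0.06 (edgeR, adjusted p = 0.391), tie1 turned from -0.14 to 0.14, and 4 genes were called higher. Over all 16604 genes, library totals gave 5455 called higher and 738 lower. For flt1 the log2 change was -0.28 (SE 0.11, adjusted p = 0.0885), and for tek it was -0.38 (SE 0.18, adjusted p = 0.134). These rest on a spread shared with the wild-type libraries: in a fit of the mvp-/- libraries alone, 5 genes were called lower, among them flt1 (adjusted p = 6.70e-05) and tek (adjusted p = 3.30e-06), and 3 were called higher, flt4, fli1a and VEGFA ENSDARG00000103542 (edgeR). Calls rose over all genes too in that fit, to 3638 higher and 3434 lower of 15537, from 2150 and 2222 of 16604.

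Between the genotypes after sham surgery, most of the 10 genes were higher in mvp-/- hearts. The gene flt1 was 6.73-fold higher, flt4 2.47-fold, VEGFA ENSDARG00000034700 1.93-fold, VEGFA ENSDARG00000103542 1.90-fold, kdrl 1.88-fold and fli1a 1.27-fold. Against them tie1 was lower, at 0.806 of the wild-type level. Thus 6 of the 10 genes were called higher and 1 lower, with a median log2 difference of 0.63, while over all genes 25.3% were called higher and 24.2% lower, with a median of 0.00.

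In edgeR's quasi-likelihood test the log2 difference was 2.75 for flt1 (SE 0.13, adjusted p = 1.67e-09), 0.91 for kdrl (SE 0.06, adjusted p = 1.08e-07) and 0.95 for VEGFA ENSDARG00000034700 (SE 0.08, adjusted p = 4.32e-07). It was 1.30 for flt4 (SE 0.17, adjusted p = 4.52e-05), 0.92 for VEGFA ENSDARG00000103542 (SE 0.18, adjusted p = 7.75e-04) and 0.35 for fli1a (SE 0.10, adjusted p = 0.0107). For tie1 it was -0.31 (SE 0.07, adjusted p = 0.00152). Scaling by library totals changed none of these calls, and among them only fli1a lost its call when 1 library was left out, at an adjusted p of 0.0523 without WT sham replicate 3. For kdr, cdh5 and tek the 95% intervals of the log2 difference included zero and ran from -0.40 to 0.10, from -0.13 to 0.32 and from -0.24 to 0.53. In these bulk libraries a change in the number of cells of a type and a change in RNA per cell cannot be told apart.

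The summed levels of markers of other cell types moved as well. The listed markers ttn.2 of cardiomyocytes, mpeg1.1 and mpx of leukocytes and hbba1 of red cells had no match and are not in the sums. In wild-type sham, wild-type 7dpa, mvp-/- sham and mvp-/- 7dpa hearts the 8 mural cell genes summed to 168 to 174, 417 to 754, 353 to 362 and 488 to 512 CPM. The 4 leukocyte genes summed to 41.6 to 46.4, 146 to 337, 81.2 to 84.6 and 166 to 172 CPM, and the 5 fibroblast genes to 209 to 244, 971 to 1909, 372 to 390 and 1193 to 1224 CPM. The 5 epicardial genes summed to 66.2 to 74.1, 190 to 206, 139 to 148 and 229.8 to 234 CPM, and the 4 thrombocyte genes to 17.3 to 20.4, 18.4 to 29.6, 30.5 to 35.6 and 28.7 to 30.8 CPM. The 3 tested of the 4 red cell genes summed to 164 to 205, 189 to 474, 304 to 319 and 592 to 612 CPM. For the 6 cardiomyocyte genes, which mark the labelled tissue, the sums were 74899 to 84549, 46142 to 59071, 74502 to 78001 and 53823 to 55745 CPM. Thus mural, leukocyte, fibroblast, epicardial, thrombocyte and red cell sums were all higher in mvp-/- than in wild-type sham hearts. The endothelial genes were mixed there. Like the ligands, flt1, kdrl, flt4 and fli1a were called higher, whereas tie1 was called lower and kdr, cdh5 and tek were not called. The single markers did not all move with their sums: between the sham groups 3 of the 5 fibroblast genes were called higher and 2 lower, and 2 of the 5 epicardial genes higher and 1 lower. For mural cells 6 of 8, for leukocytes 3 of 4, for thrombocytes 3 of 4 and for red cells 2 of 3 tested genes were called higher and the rest were not called. Of the 6 cardiomyocyte genes 2 were called higher and 0 lower, although their sums overlapped between the sham groups. Over all genes 25.3% were called higher and 24.2% lower in this comparison. The part of the shifts of cell type markers in the differences of the 10 genes was not tested.

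Between the genotypes at 7dpa, flt1 was 1.89-fold higher in mvp-/- hearts, flt4 1.62-fold and kdrl 1.45-fold. Of the 10 genes, 3 were called higher and 0 lower (also 0 lower at an unadjusted p under 0.05 in edgeR and 0 in DESeq2), with a median log2 difference of 0.28, and over all genes 8.94% were called higher and 10.6% lower, with a median of -0.02. In edgeR's test the log2 difference was 0.92 for flt1 (SE 0.12, adjusted p = 1.88e-04), 0.54 for kdrl (SE 0.06, adjusted p = 9.87e-05) and 0.69 for flt4 (SE 0.16, adjusted p = 0.00826), and all 3 were called in each of the 12 fits without 1 library. For VEGFA ENSDARG00000034700 it was 0.04 with a 95% interval from -0.13 to 0.20. Without WT 7dpa replicate 1, 6 genes were called higher and 1 lower, with fli1a at 0.33, VEGFA ENSDARG00000103542 at 0.37, tek at 0.70 (adjusted p = 2.32e-06) and cdh5 at -0.22 (edgeR, adjusted p = 0.0318). Calls over all genes rose as well in that fit, to 2517 higher and 3442 lower of 17074, from 1484 and 1762 of 16604.

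**Figure D2:**
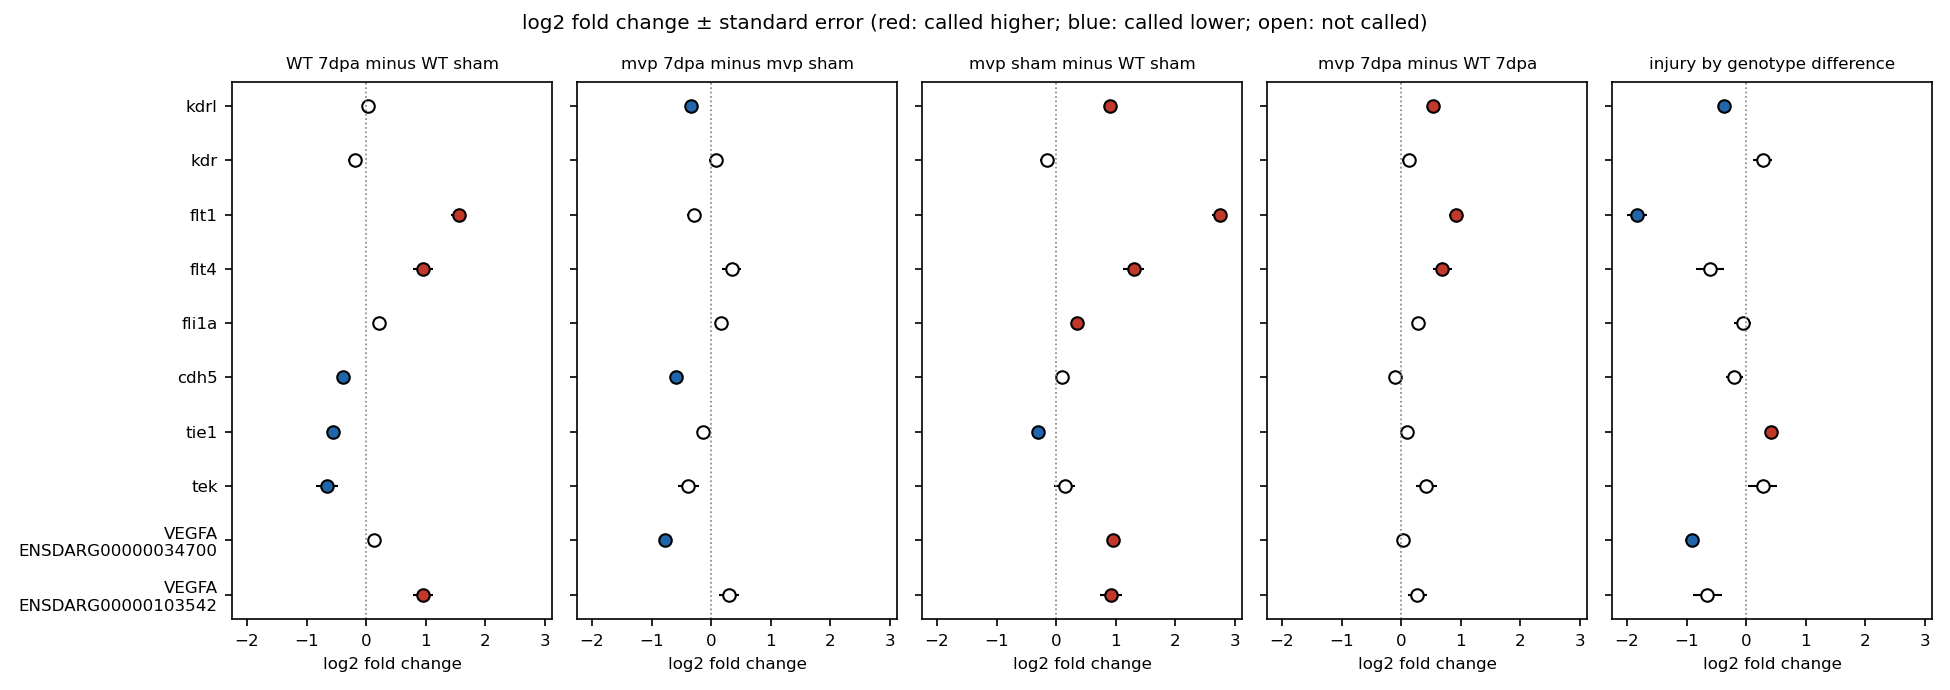
Log2 fold change of the 10 genes in the 4 comparisons and the difference of the injury responses between genotypes (mvp-/- minus wild-type), with the standard error as the bar. Red points were called higher and blue points lower at an adjusted p under 0.05 in edgeR, and open points were not called; flt1 is the highest point in both genotype comparisons and the lowest in the difference of responses.

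Whether the change between sham and 7dpa hearts differed between genotypes was tested directly. The ratio of 7dpa to sham levels of flt1 was 3.57-fold lower in mvp-/- than in wild-type hearts, since flt1 rose 2.93-fold in the wild type and was at 0.822 of its sham level in the mutant. The changes of VEGFA ENSDARG00000034700 and kdrl were also lower in mvp-/- hearts, and that of tie1 was higher, with -0.14 on the log2 scale in mvp-/- against -0.55 in wild-type hearts. Of the 10 genes, 1 was called higher and 3 lower in this difference, with a median of -0.28, and over all genes 15.2% were called higher and 19.9% lower, with a median of -0.03. The log2 difference of the responses was -1.83 for flt1 (SE 0.17, adjusted p = 3.83e-06), -0.92 for VEGFA ENSDARG00000034700 (SE 0.11, adjusted p = 3.46e-05), -0.37 for kdrl (SE 0.09, adjusted p = 0.00626) and 0.42 for tie1 (SE 0.09, adjusted p = 0.00407) in edgeR's test. All 4 calls were made in each fit without 1 library and with library totals. VEGFA ENSDARG00000103542 was near the threshold at -0.65 (SE 0.24, adjusted p = 0.0514), and it was called by DESeq2 (-0.66, adjusted p = 0.0377) and with a replicate block (-0.66, adjusted p = 0.0418). All of these comparisons share groups, so the low wild-type sham level of flt1 enters both its wild-type rise and its genotype difference.

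Ratios of counts within a library need no scaling between libraries, and they were formed for 5 pairs after the levels had been seen, so they are given without a test. For each kdrl count there were 0.297 ± 0.0319 flt1 counts (SD of 3 libraries) in wild-type sham hearts and 0.855 ± 0.201 in wild-type 7dpa hearts. In mvp-/- hearts the ratio was 1.06 ± 0.0154 after sham surgery and 1.104 ± 0.0365 at 7dpa. The flt1 to kdrl ratio thus differed between surgeries in the wild type, while the mvp-/- groups overlapped and lay above both wild-type groups. In the wild-type 7dpa group it was 0.624 in replicate 1 and 0.992 and 0.949 in replicates 2 and 3.

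The kdrl to cdh5 ratio was 0.474 ± 0.0301, 0.639 ± 0.107, 0.834 ± 0.0761 and 0.988 ± 0.0948 (SD of 3 libraries) in wild-type sham, wild-type 7dpa, mvp-/- sham and mvp-/- 7dpa hearts. It was higher in every mvp-/- library than in every wild-type library. The kdrl to kdr ratio was 2.91 ± 0.364 and 3.38 ± 0.201 in wild-type sham and 7dpa hearts, and 6.06 ± 0.692 and 4.47 ± 0.180 in mvp-/- sham and 7dpa hearts. Here too every mvp-/- library was above every wild-type one, so the genotypes differed in kdrl relative to both cdh5 and kdr. The tek to tie1 ratio overlapped between surgeries in the wild type, at 0.560 ± 0.120 after sham surgery and 0.513 ± 0.141 at 7dpa, and was 0.764 ± 0.0598 and 0.647 ± 0.0506 in mvp-/- sham and 7dpa hearts.

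The ratio of the VEGFA copies separated the surgeries in both genotypes. VEGFA ENSDARG00000034700 had 38.2 ± 9.48 counts for each count of VEGFA ENSDARG00000103542 (SD of 3 libraries) in wild-type sham hearts and 37.5 ± 2.33 in mvp-/- sham hearts. At 7dpa it had 20.9 ± 0.595 in wild-type and 17.9 ± 2.50 in mvp-/- hearts. Every 7dpa library, from 15.5 to 21.5, was below every sham library, from 28.1 to 46.9. The genotypes overlapped within each surgery group.

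**Figure D3:**
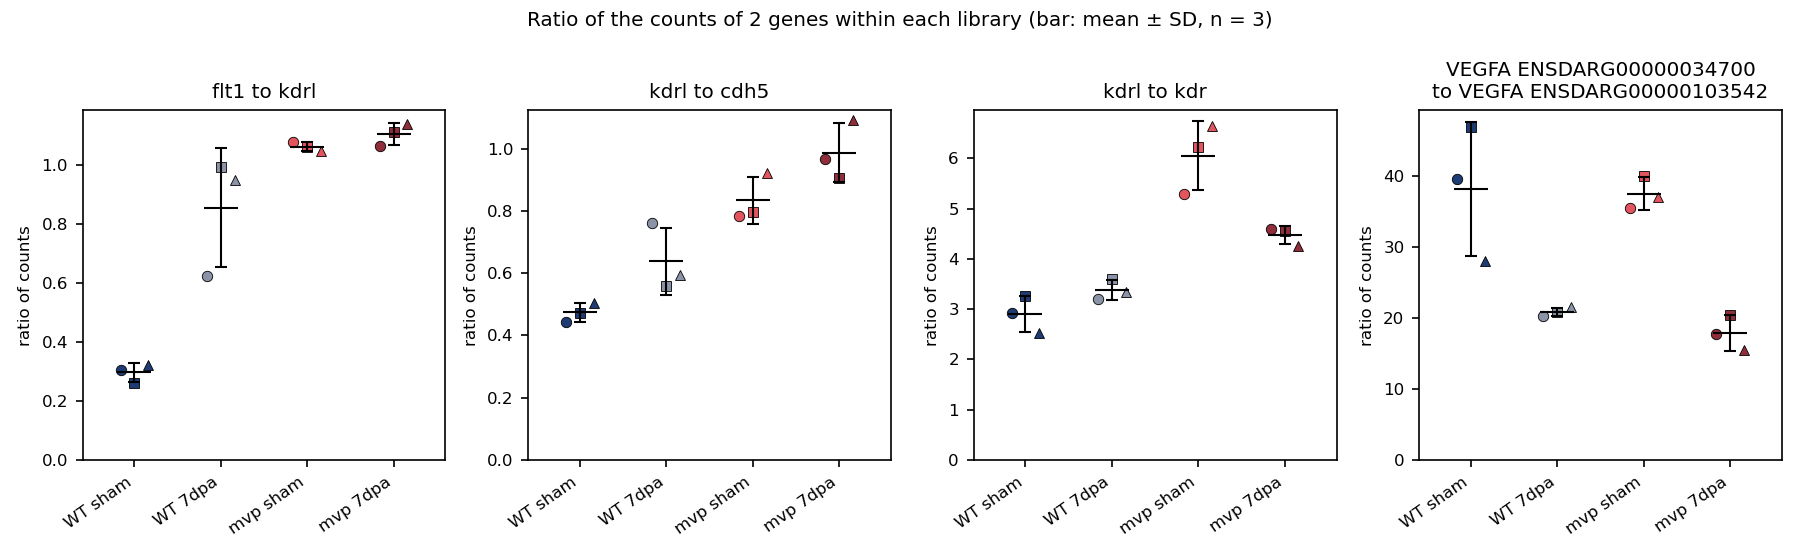
Ratio of the counts of 2 genes within each library for flt1 to kdrl, kdrl to cdh5, kdrl to kdr and the VEGFA copies (linear axes from 0, not normalised for gene length). Points are libraries and bars are the mean ± SD of 3 libraries; the VEGFA ratio of every 7dpa library is below that of every sham library, and kdrl to cdh5 is higher in every mvp-/- library than in every wild-type one.

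Among the 10 genes the closest profiles over the 12 libraries were those of kdrl and VEGFA ENSDARG00000034700, a receptor and a ligand gene, with a root mean square difference of 0.203 in centred log2 CPM. Next were kdr and tie1 at 0.205, cdh5 and tie1 at 0.208, and flt4 and VEGFA ENSDARG00000103542 at 0.274. The VEGFA copies were 0.512 apart, and flt1 and tie1 were farthest apart at 1.23. This measure is a description over libraries of 4 groups, and genes whose changes between groups are alike in direction and size come out close. Profiles were centred but not scaled, so genes with small changes can come out close without a shared pattern. Against wild-type sham hearts, tie1 was called lower in resected wild-type hearts (log2 change -0.55) and in mvp-/- sham hearts (-0.31). For kdr, which was close to tie1, these changes were -0.19 and -0.15 and were not called. The distances of flt1 likewise include the size of its changes.

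Among 15863 other genes with a symbol, the closest to kdrl were foxo3b at 0.0852, fabp4a at 0.0973 and sh3rf2 at 0.0974. The profile of flt1 had more distant neighbours than that of kdrl, led by nfil3-6 at 0.154 and SPRY4, an inhibitor of receptor tyrosine kinase signalling, at 0.165. The nearest neighbour of flt4, dlg1b, was farther still at 0.169. Closest to VEGFA ENSDARG00000034700 were NQO1 at 0.0781, si:dkey-60d5.3 at 0.0799 and PFKP, a glycolytic enzyme gene, at 0.0859. Closest to VEGFA ENSDARG00000103542 were ZCCHC10 at 0.129 and robo4, an endothelial guidance receptor gene, at 0.143.

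Besides the 10 genes, 106 other vascular genes in 8 lists were tested. The listed symbols cd93, icam2, emcn, nos3, eng and pdpn had no match and were left out. In wild-type hearts 38 of them (35.8%) were called higher and 36 (34.0%) lower at 7dpa, near the 31.6% and 27.8% of all genes. In mvp-/- hearts 15 (14.2%) were called higher and 24 (22.6%) lower at 7dpa, against 12.9% and 13.4% of all genes. In mvp-/- against wild-type hearts 43 (40.6%) were called higher and 21 (19.8%) lower after sham surgery, against 25.3% and 24.2% of all genes, and 16 (15.1%) higher and 7 (6.60%) lower at 7dpa, against 8.94% and 10.6%. These shares of all genes, from the reported fit, are the background of the list counts in the paragraphs below. The lists, like the 10 genes, were chosen with earlier results of these data known. The shares therefore cannot test whether vascular genes differ from other genes. For each list the counts of only some comparisons are given. The median log2 difference of the 106 genes between genotypes was 0.14 after sham surgery and 0.11 at 7dpa, against 0.00 and -0.02 over all genes. With library totals the wild-type 7dpa split became 54 higher and 17 lower and the mvp-/- one 37 higher and 7 lower, whereas the sham genotype split was 44 higher and 18 lower. Over all 16604 genes these splits were 8353 higher and 2042 lower, 5455 and 738, and 4534 and 3601 with library totals. Without WT 7dpa replicate 1, 35 were higher and 13 lower between genotypes at 7dpa. Over all 17074 genes of that fit 2517 were higher and 3442 lower.

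Of 7 Vegf ligand and coreceptor genes, 3 were called higher in wild-type 7dpa hearts (31.6% of all genes) and 3 in mvp-/- against wild-type sham hearts (25.3% of all genes), and the others were not called. VEGFC, the ligand of the flt4 receptor, stood at 1.54 ± 0.178 CPM (SD over 3 libraries) in wild-type sham and 3.78 ± 0.544 CPM in wild-type 7dpa hearts, a log2 rise of 1.30 (edgeR, adjusted p = 3.79e-05). It was at 3.55 ± 0.551 CPM in mvp-/- sham and 3.97 ± 0.0421 CPM in mvp-/- 7dpa hearts. PGF, in mammals a ligand of FLT1, rose by 1.02 in the wild type (adjusted p = 0.00352) and fell by 0.96 in the mutant (edgeR, adjusted p = 0.00833). PGF was at 0.711 ± 0.245, 1.46 ± 0.111, 2.22 ± 0.181 and 1.14 ± 0.129 CPM (n = 3, SD) in wild-type sham, wild-type 7dpa, mvp-/- sham and mvp-/- 7dpa hearts, from 8 to 48 counts a library.

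Of 10 angiopoietin axis genes, 4 were called higher and 4 lower in wild-type 7dpa hearts (31.6% and 27.8% of all genes), and 3 higher and 3 lower in mvp-/- against wild-type sham hearts (25.3% and 24.2% of all genes). ANGPT2, an angiopoietin that can block the receptor encoded by tek, had 18, 23 and 22 counts in wild-type sham and 11, 7 and 8 in wild-type 7dpa libraries. It had 8, 1 and 1 counts in mvp-/- sham and 5, 5 and 13 in mvp-/- 7dpa libraries, with a log2 difference of -2.61 between the sham groups (edgeR, adjusted p = 0.00238). The angiopoietin-like gene angptl2a had 4, 3 and 2 counts in wild-type sham and 193, 50 and 69 in wild-type 7dpa libraries, the highest in WT 7dpa replicate 1, and it was called higher at 7dpa in both genotypes. In mvp-/- hearts it had 6, 5 and 6 counts after sham surgery and 37, 38 and 50 at 7dpa.

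Of 17 endothelial transcription factor genes, 7 were called higher and 3 lower in mvp-/- against wild-type sham hearts (25.3% and 24.2% of all genes), and 5 higher and 2 lower at 7dpa (8.94% and 10.6% of all genes). In mvp-/- 7dpa against mvp-/- sham hearts 0 were called higher and 6 lower (12.9% and 13.4% of all genes). The gene etsrp, a factor that starts the endothelial program in zebrafish embryos, was at 34.8 ± 6.65 and 13.8 ± 3.04 CPM (n = 3, SD) in wild-type sham and 7dpa hearts, and at 21.8 ± 1.80 and 11.8 ± 0.663 CPM in mvp-/- sham and 7dpa hearts. It fell at 7dpa in both genotypes, by 1.34 and by 0.89 on the log2 scale (edgeR, adjusted p = 1.08e-05 and 0.00135). The ETS family gene ets2 was at 8.17 ± 0.229 CPM in wild-type sham hearts and at 44.5 ± 11.98, 68.9 ± 2.60 and 84.6 ± 5.43 CPM in wild-type 7dpa, mvp-/- sham and mvp-/- 7dpa hearts. Its wild-type sham level was the lowest of the groups, as for flt1. SOX17, a factor of arterial endothelium in mammals, had 2 to 11 counts in wild-type and 16 to 27 in mvp-/- libraries.

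Of 22 endothelial surface and junction genes, 8 were called higher and 10 lower in wild-type 7dpa hearts (31.6% and 27.8% of all genes), and 11 were called higher and 4 lower in mvp-/- against wild-type sham hearts (25.3% and 24.2% of all genes). The gene plvapa, of the diaphragms of fenestrated endothelium, fell by 1.03 on the log2 scale in mvp-/- 7dpa hearts (edgeR, adjusted p = 2.07e-04), from 4.10 ± 0.358 to 2.003 ± 0.154 CPM (SD, n = 3). In wild-type hearts plvapa went from 4.59 ± 0.282 to 3.31 ± 0.243 CPM, a log2 change of -0.47 (adjusted p = 0.00896) that became -0.08 with library totals (edgeR, adjusted p = 0.612). The adhesion gene mcama had 4, 6 and 4 counts in wild-type sham and 29, 41 and 16 in mvp-/- sham libraries, and 8, 26 and 19 in wild-type and 34, 32 and 29 in mvp-/- 7dpa libraries. The tight junction gene CLDN5 ENSDARG00000043716 had 3, 4 and 4 counts in wild-type sham and 27, 23 and 43 in wild-type 7dpa libraries, and 4, 17 and 12 in mvp-/- sham and 36, 29 and 19 in mvp-/- 7dpa libraries.

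Of 19 endocardial and shear stress genes, 4 were called higher and 9 lower in wild-type 7dpa hearts (31.6% and 27.8% of all genes), and 6 higher and 6 lower in mvp-/- against wild-type sham hearts (25.3% and 24.2% of all genes). Between genotypes at 7dpa 5 were called higher and 0 lower (8.94% and 10.6% of all genes). The flow-responsive transcription factor gene klf2b had 5.34 ± 1.14 CPM (SD over 3 libraries) in wild-type sham hearts and at 21.8 ± 9.47, 34.2 ± 2.19 and 35.8 ± 1.19 CPM in wild-type 7dpa, mvp-/- sham and mvp-/- 7dpa hearts. ADAMTS1, a secreted protease gene, was at 4.62 ± 0.298 CPM in wild-type sham hearts, 19.2 ± 1.76 CPM in wild-type 7dpa, 29.5 ± 0.631 CPM in mvp-/- sham and 41.4 ± 1.72 CPM in mvp-/- 7dpa hearts. Both were thus lowest in wild-type sham hearts. The endothelin gene edn1 was instead lowest in mvp-/- sham hearts, at 2.19 ± 0.244 CPM, and rose there to 5.43 ± 1.30 CPM at 7dpa, by 1.31 on the log2 scale (edgeR, adjusted p = 0.00165). In wild-type hearts edn1 was at 5.13 ± 0.790 CPM after sham surgery and 4.38 ± 1.31 CPM at 7dpa.

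Of 11 genes of the Bmp9 receptor axis, 7 were called higher and 2 lower in wild-type 7dpa hearts (31.6% and 27.8% of all genes), and 2 higher and 1 lower in mvp-/- 7dpa hearts (12.9% and 13.4% of all genes). The receptor gene acvrl1 rose in both, by 1.24 and 0.86 on the log2 scale (edgeR, adjusted p = 3.35e-07 and 4.25e-05), from 17.02 ± 0.745 to 40.3 ± 5.66 CPM and from 20.98 ± 0.807 to 38.2 ± 2.71 CPM (SD, n = 3). ID2, a target of Bmp signalling, was at 8.07 ± 0.211 and 20.8 ± 0.647 CPM (n = 3, SD) in wild-type sham and 7dpa hearts, and at 8.57 ± 0.553 and 12.2 ± 0.568 CPM in mvp-/- sham and 7dpa hearts. The signal transducer gene SMAD1 was highest in mvp-/- sham hearts at 123 ± 3.55 CPM, with 77.9 ± 5.34, 100.02 ± 0.711 and 101 ± 4.87 CPM in wild-type sham, wild-type 7dpa and mvp-/- 7dpa hearts. Its log2 fall of -0.28 at 7dpa there (adjusted p = 0.00700) became -0.0026 with library totals (edgeR, adjusted p = 0.982).

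Of 8 apelin and chemokine genes of vessels, 4 were called higher and 2 lower in each of 3 comparisons, wild-type 7dpa, mvp-/- 7dpa and mvp-/- against wild-type sham hearts, where 31.6% and 27.8%, 12.9% and 13.4%, and 25.3% and 24.2% of all genes were called. CXCL12, a chemokine gene, had 3.99 ± 0.359 CPM (SD over 3 libraries) in wild-type sham, 27.4 ± 0.485 CPM in wild-type 7dpa, 18.7 ± 0.0918 CPM in mvp-/- sham and 31.4 ± 1.20 CPM in mvp-/- 7dpa hearts. Its receptor gene CXCR4 ENSDARG00000041959, which leukocytes also express, was at 25.7 ± 1.79, 223 ± 48.0, 99.4 ± 1.49 and 193 ± 2.24 CPM in the same groups. Both were lowest in wild-type sham hearts. The paralog cxcl12b was higher in mvp-/- than in wild-type hearts after both surgeries, by 1.24 and 0.91 on the log2 scale (edgeR, adjusted p = 1.23e-05 and 7.65e-04). CXCR4 ENSDARG00000057633 had 7, 9 and 3 counts in wild-type sham and 20, 11 and 22 in wild-type 7dpa libraries. It had 3, 3 and 8 counts in mvp-/- sham and 14, 16 and 23 in mvp-/- 7dpa libraries, a log2 rise of 1.62 (edgeR, adjusted p = 0.0179).

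Of 12 lymphatic genes, 5 were called higher and 4 lower in wild-type 7dpa hearts (31.6% and 27.8% of all genes), and 6 were called higher and 2 lower in mvp-/- against wild-type sham hearts (25.3% and 24.2% of all genes). The genes lyve1a and lyve1b, which mark lymphatic vessels, were both called higher in mvp-/- sham hearts, by 1.496 (adjusted p = 0.00128) and 1.93 (adjusted p = 0.00201) on the log2 scale in edgeR's test. The lyve1b counts were 2, 5 and 3 in wild-type sham, 18, 21 and 13 in wild-type 7dpa, 12, 14 and 13 in mvp-/- sham and 15, 9 and 11 in mvp-/- 7dpa libraries. The level of lyve1a was 1.55 ± 0.383, 1.04 ± 0.622, 4.41 ± 0.526 and 3.53 ± 0.382 CPM (SD, n = 3) in those groups. MRC1, which lymphatic endothelium and macrophages both express, was at 0.953 ± 0.218, 4.38 ± 0.951, 2.44 ± 0.326 and 2.21 ± 0.413 CPM (n = 3, SD) in wild-type sham, wild-type 7dpa, mvp-/- sham and mvp-/- 7dpa hearts. The gene prox3 was at 1.56 ± 0.254, 2.27 ± 0.515, 3.32 ± 0.844 and 2.07 ± 0.176 CPM in the same groups. The summed leukocyte markers given above were likewise lowest in wild-type sham hearts, and their part in the level of MRC1 was not tested.

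**Figure D4:**
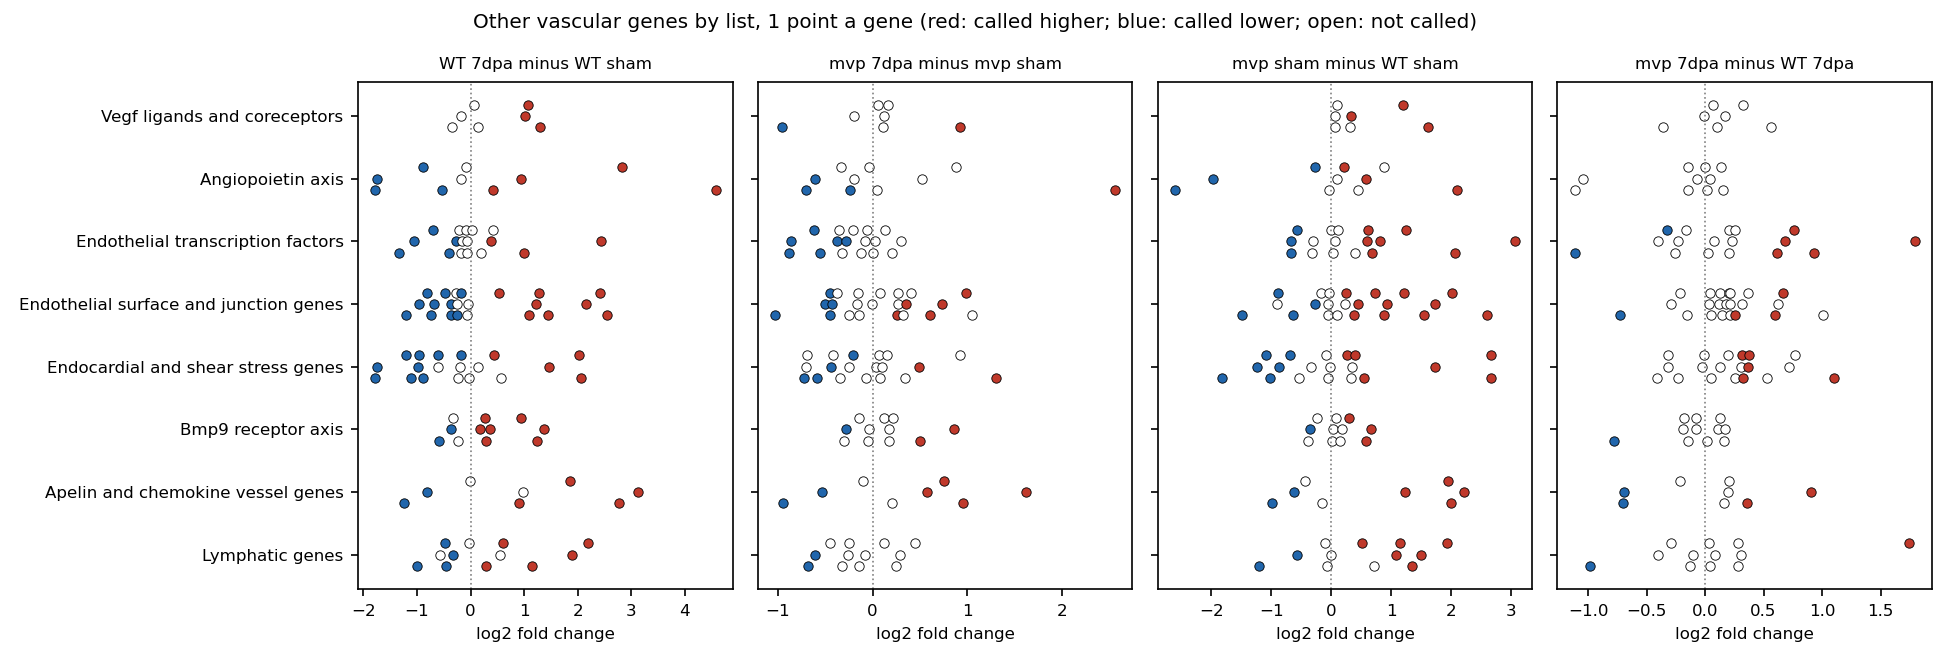
Log2 fold change of the 106 other vascular genes by list, with 1 point a gene, in the 4 comparisons (horizontal axes differ in range). Red points were called higher and blue points lower at an adjusted p under 0.05 in edgeR, and open points were not called; in mvp-/- against wild-type sham hearts 43 genes were called higher and 21 lower.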

How the data were processed

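Total RNA was turned into libraries by a low-input protocol and sequenced on an Illumina NovaSeq. Reads were aligned by the authors to GRCz11 with HISAT2 2.1.0 and counted per Ensembl gene with featureCounts 1.6.0; bcl2fastq, FastQC 0.11.8 and SAMtools 1.10 are also named in the submitters' processing notes. The annotation release and the treatment of strand and of reads with several matches were not given in the sources used here. The deposited values are whole-number counts per gene without normalization.

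Identifiers were matched to symbols through a table of gene names, which gave a symbol to 29201 of 32520 genes, and fli1a through a RefSeq synonym. The analysis used edgeR 4.0.16 under R 4.3.3: genes were filtered with filterByExpr, scaled by TMM and fitted with a mean per group over 12 libraries in the quasi-likelihood model, and each comparison was a contrast with Benjamini-Hochberg adjustment over 16604 genes. A gene was called at an adjusted p under 0.05. SE is the log2 change divided by the root of the F statistic. Profiles were compared in log2 CPM with a prior count of 2. The models were tested on simulated counts.

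The 10 genes and the lists were chosen with earlier results of these data known. From each list, the called gene with the largest change in each of the 4 group comparisons could be named, and its levels or counts are given. Alternatives were RLE size factors, DESeq2 1.42.0, no filter, at least 10 counts in every library, scaling without mitochondrial genes and the top 20 genes, only the groups compared, a replicate block and leaving out each library. Library totals without TMM, the ratios, and the lists without WT 7dpa replicate 1 were added after seeing the data. Intervals are 95% and, like SE, cover these libraries only. No sequences or coordinates are given.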

Additional observations from a re-analysis of the deposited data

Results flagged for a closer look

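The response to resection differed between mvp-/- and wild-type hearts, by the test of the difference itself in edgeR, for 4 of the 10 genes and for 16 of the other named vascular genes. Of the 10 genes, 1 was called higher and 3 lower, a share near that over all genes. The named genes angptl2a, etsrp, SOX17, CLDN5 ENSDARG00000043716, mcama, CXCR4 ENSDARG00000057633, cxcl12b and lyve1a were not called. Over all 106 other vascular genes 15 (14.2%) were called higher and 27 (25.5%) lower in this difference, against 15.2% and 19.9% of all genes. The named ones were picked for a large change in a group comparison that enters the difference, so their directions do not stand for the lists. The gene ANGPTL4, outside that rule and chosen after its value was seen, was at 1.83 (edgeR, adjusted p = 5.07e-07). All values are log2 differences, mvp-/- minus wild-type. The 4 were flt1 at -1.83 (adjusted p = 3.83e-06), VEGFA ENSDARG00000034700 at -0.92 (adjusted p = 3.46e-05), kdrl at -0.37 (adjusted p = 0.00626) and tie1 at 0.42 (adjusted p = 0.00407). All 4 were called between genotypes after sham surgery. At 7dpa flt1 and kdrl were called, whereas VEGFA ENSDARG00000034700 (0.04) and tie1 (0.10) were not. Unlike sham levels thus enter these differences, and sham levels also enter those of the other named genes.

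Among ligands and chemokine genes the difference was -1.13 for VEGFC (adjusted p = 0.00300), -1.98 for PGF (adjusted p = 7.55e-04), 2.63 for ANGPT2 (adjusted p = 0.0274), -2.02 for CXCL12 (adjusted p = 4.51e-08) and -2.17 for CXCR4 ENSDARG00000041959 (edgeR, adjusted p = 1.20e-06). ANGPT2 had 1 to 23 counts a library. For transcription factors and shear stress genes it was -2.15 for ets2 (adjusted p = 1.03e-05), -1.96 for klf2b (adjusted p = 0.00154), 1.53 for edn1 (adjusted p = 0.00344) and -1.57 for ADAMTS1 (edgeR, adjusted p = 7.94e-07). It was -0.56 for plvapa (adjusted p = 0.0419), -0.38 for acvrl1 (adjusted p = 0.0489), -0.64 for SMAD1 (adjusted p = 1.88e-04) and -0.86 for ID2 (edgeR, adjusted p = 1.50e-04). Among lymphatic genes it was -1.22 for prox3 (adjusted p = 0.0130), -2.33 for lyve1b (adjusted p = 0.00516) and -2.33 for MRC1 (edgeR, adjusted p = 1.45e-04). The sums of mural and leukocyte markers also differed less between surgeries in mvp-/- than in wild-type hearts, and their part in these differences was not tested. No test for a single outlying value was run in groups of 3 libraries; that WT 7dpa replicate 1 stood apart over all genes is given with the library totals.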

How the results depend on the processing

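In the fits with RLE size factors, DESeq2, no filter and the replicate block, 49 of 50 member changes had the same direction and call as the reported fit, and the other was a gained call, that of VEGFA ENSDARG00000103542 in the difference of responses (-0.66 with the replicate block, edgeR adjusted p = 0.0418). All 50 were the same when the scale was set without the mitochondrial and top 20 genes. No pairing of libraries by replicate number was seen: 0 of 18 same-number correlations were over 0.1, and 4 of 12 libraries correlated best with their own number. A small effect shared by libraries of the same number could be missed in this way.

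With library totals the genes called higher and lower in wild-type 7dpa hearts were 6 and 1, those called higher in mvp-/- 7dpa hearts were 4, and those called lower in the difference of responses were 5. The same counts over all 16604 genes were 8353 and 2042, 5455, and 3923. Log2 changes that turned sign under it were 0.20 for kdr and 0.014 for cdh5 in wild-type 7dpa hearts, 0.14 for tie1 in mvp-/- 7dpa hearts, and -0.024 for VEGFA ENSDARG00000034700 between genotypes at 7dpa. With at least 10 counts in every library 5 were called higher in wild-type 7dpa hearts and 5 lower in the difference of responses. Over the 12910 genes of that fit these counts were 4000 and 2751. In the mvp-/- groups alone 3 were called higher and 5 lower, and over 15537 genes 3638 and 3434.

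Of the member changes with 1 library left out, 576 had the same direction and call, 19 gained a call, 1 lost it and 4 turned sign without a call. Leaving out each library in turn gave 0 to 1 called higher and 3 to 6 lower in mvp-/- 7dpa hearts, 3 to 6 higher and 0 to 1 lower between genotypes at 7dpa, and 1 to 2 higher and 3 to 5 lower in the difference of responses. The outlying value of each range was that without WT 7dpa replicate 1. Over the 17074 genes of that fit, 3554 were called higher and 3485 lower in mvp-/- 7dpa hearts. In the difference of responses these were 3735 and 4781. Uncalled log2 changes that turned sign were those of kdrl in wild-type 7dpa hearts (-0.0056 to 0.072), VEGFA ENSDARG00000034700 between genotypes at 7dpa (-0.029 to 0.11) and fli1a in the difference of responses (-0.14 to 0.036). Over all genes, calls between genotypes at 7dpa went from 1484 higher and 1762 lower to 2517 and 3442 without WT 7dpa replicate 1 and to 702 and 701 in those groups alone; in mvp-/- 7dpa hearts they went from 2150 and 2222 to 3638 and 3434 in those groups alone and to 5455 and 738 with library totals. The cause was not tested. Depth limits flt4, VEGFA ENSDARG00000103542 and the list genes with a few counts a library.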
